A study of Mus musculus with 3 samples.

Results

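The replication-dependent histone genes were taken as the protein-coding genes whose symbols begin with Hist1h, Hist2h, Hist3h or Hist4h in a GENCODE annotation of the mm10 mouse genome. There were 67 of them among 21938 protein-coding genes. The Hist1 cluster on chromosome 13 holds 54, the Hist2 cluster on chromosome 3 holds 10, the Hist3 pair lies on chromosome 11 and Hist4h4 on chromosome 6. By product they comprise 6 linker H1, 18 H2A, 18 H2B, 12 H3 and 13 H4 genes. Their names alone chose them, and no measurement entered the choice.

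Open chromatin was measured by ATAC-seq, which marks accessible DNA by the insertions of a transposase, in lines of mouse pre/pro-B-cells. The lines had been made by transducing bone marrow with a retrovirus that carries the oncogene BCR-ABL(p185), an alteration that all 4 lines share. The donor C57BL/6 mice expressed wildtype CDK6 (Cdk6+/+) or the kinase-inactive mutant K43M (Cdk6 KM/KM), homozygous in each case. The data are 4 peak lists, 1 per line and 2 per genotype, named WT unnumbered, WT replicate 2, K43M replicate 1 and K43M replicate 2. WT unnumbered carries no sample label and was placed with the wildtype lines from the design text, so values without it are also given. By that text it belongs to a line whose data were submitted earlier and reprocessed for this series. Values for the 4 lists are given in that order throughout. The labels do not say whether the lines of a genotype came from separate animals, so error here is the spread between the lines, and it may be technical in part. With 2 lists against 2, an exact two-sided permutation test cannot go below 0.333.

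Histones package DNA into nucleosomes, each built around H2A, H2B, H3 and H4, while H1 binds the linker DNA between them. Dividing cells make most of these proteins in S phase from clustered genes without introns, whose messages end in a conserved stem-loop instead of a poly(A) tail. NPAT, a substrate of cyclin E and CDK2, activates the clusters, and SLBP binds the stem-loop. CDK6 acts earlier in the cell cycle, with D-type cyclins, on the retinoblastoma protein.

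The sequences of these genes carry the marks of the family. A hairpin of this kind, with a stem of 6 bases beginning GG and a loop of 4 bases beginning TT, was found on the gene strand within 150 bp of the annotated end in 37 of 67 histone genes (55.2%). The same search found it in 9 of 21871 other genes (0.0412%). In 63 histone genes a hairpin lay somewhere in the gene or within 150 bp of it. The most frequent forms near the end are shown with the stem in the outer bases, and they were read from the GRCm38 sequence. The first was found in 24 genes, the next in 6 and the last in 5, all of them H4 genes.
Stem-loop of Hist1h2ah, Hist1h1a and others: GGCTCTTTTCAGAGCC
Stem-loop of Hist1h2bk, Hist1h2bb and others: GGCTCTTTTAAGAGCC
Stem-loop of Hist1h4h, Hist1h4f and others: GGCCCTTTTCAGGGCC

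Promoter sequences were available from RefSeq (GRCm38.p6) for 62 of the 67 genes. The 250 bases before the RefSeq start are shown for the genes with the strongest peaks of the H1, H2B, H3 and H4 classes in Hist1. The promoter of Hist1h2bk runs into that of the divergent Hist1h2ah, the strongest H2A gene. Hist4h4 stands outside the clusters. Hist1h2af and Hist1h1a had peaks in wildtype lists alone, and Hist1h2bq had no peak and no unique promoter sequence. Capitals mark matches, on either strand, to the 6 motifs that are counted in the next paragraph.
Hist1h1c, chr13:23738557-23738806, plus strand: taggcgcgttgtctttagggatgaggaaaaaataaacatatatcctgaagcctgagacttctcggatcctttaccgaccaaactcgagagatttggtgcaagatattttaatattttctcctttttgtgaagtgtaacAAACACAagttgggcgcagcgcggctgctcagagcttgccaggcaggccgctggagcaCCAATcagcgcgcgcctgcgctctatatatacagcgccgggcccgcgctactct
Hist1h2bk, chr13:22035571-22035820, plus strand: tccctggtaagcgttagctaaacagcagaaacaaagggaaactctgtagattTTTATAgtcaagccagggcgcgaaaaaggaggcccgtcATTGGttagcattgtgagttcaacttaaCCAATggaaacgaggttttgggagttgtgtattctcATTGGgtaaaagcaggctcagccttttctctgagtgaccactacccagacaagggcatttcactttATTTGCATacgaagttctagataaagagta
Hist1h3e, chr13:23562386-23562635, minus strand: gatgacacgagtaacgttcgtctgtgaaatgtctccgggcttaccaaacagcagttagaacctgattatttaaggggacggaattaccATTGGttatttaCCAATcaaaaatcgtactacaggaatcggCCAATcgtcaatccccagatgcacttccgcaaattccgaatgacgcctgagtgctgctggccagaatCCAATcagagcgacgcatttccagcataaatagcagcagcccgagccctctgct
Hist1h4c, chr13:23698459-23698708, minus strand: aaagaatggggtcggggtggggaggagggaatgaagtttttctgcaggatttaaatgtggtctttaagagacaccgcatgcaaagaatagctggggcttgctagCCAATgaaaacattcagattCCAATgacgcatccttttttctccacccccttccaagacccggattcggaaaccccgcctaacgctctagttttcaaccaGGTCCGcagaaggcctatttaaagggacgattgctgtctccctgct
Hist4h4, chr6:136804432-136804681, minus strand: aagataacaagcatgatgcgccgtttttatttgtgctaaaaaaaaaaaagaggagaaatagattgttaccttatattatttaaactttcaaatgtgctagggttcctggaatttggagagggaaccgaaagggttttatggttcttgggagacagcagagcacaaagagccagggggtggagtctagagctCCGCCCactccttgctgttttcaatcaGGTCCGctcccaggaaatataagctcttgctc
Hist1h2af, chr13:23533625-23533874, plus strand: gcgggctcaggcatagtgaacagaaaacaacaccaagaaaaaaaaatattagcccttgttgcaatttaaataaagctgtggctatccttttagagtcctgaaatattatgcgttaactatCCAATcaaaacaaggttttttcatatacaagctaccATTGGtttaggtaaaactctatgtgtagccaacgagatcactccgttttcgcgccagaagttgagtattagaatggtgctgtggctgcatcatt
Hist1h1a, chr13:23763418-23763667, plus strand: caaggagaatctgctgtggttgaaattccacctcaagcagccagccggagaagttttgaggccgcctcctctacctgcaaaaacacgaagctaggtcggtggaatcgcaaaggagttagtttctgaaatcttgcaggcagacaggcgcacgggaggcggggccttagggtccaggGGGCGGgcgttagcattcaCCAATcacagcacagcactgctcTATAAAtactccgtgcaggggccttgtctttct
Hist1h2bq, chr13:21810200-21810449, minus strand: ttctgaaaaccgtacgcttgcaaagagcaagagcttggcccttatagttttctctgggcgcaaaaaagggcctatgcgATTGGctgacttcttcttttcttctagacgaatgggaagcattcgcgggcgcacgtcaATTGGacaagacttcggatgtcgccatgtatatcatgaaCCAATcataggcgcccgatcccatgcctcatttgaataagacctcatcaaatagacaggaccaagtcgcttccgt

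These motifs were counted from 250 bases before to 50 after the start, beside 32851 RefSeq promoters of the same length. CCAAT, the core of the NF-Y site, was present in 53 of 62 histone promoters against 37.4% of all promoters. It was found in every H1, H2A, H2B and H3 promoter but in 3 of 12 H4 promoters. GGTCCG had the opposite distribution, with 11 of 12 H4 promoters, 1 H2B and 1 H3 promoter against 8.25% of all. ATTTGCAT, the octamer bound by OCT1, was found in 7 of 18 H2A and 6 of 16 H2B promoters and in no other class, against 1.74% of all. AAACACA was found in 5 of 6 H1, 2 H2A and 2 H2B promoters against 7.18% of all. TATAAA was present in 35 histone promoters (56.5%, all promoters 13.6%) and GGGCGG in 23 (37.1%, all promoters 35.7%). No motif contains another, both strands were searched, and a match shows only that these letters are present.

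A gene was called open in a list when at least 1 base of a peak lay between 500 bp before and 200 bp after its annotated start. By this measure 54, 52, 51 and 49 of the 67 histone genes were open in the 4 lists. In every list 45 were open (67.2%), 13 were open in some lists and 9 in none. The background share was 41.0% of all protein-coding genes, and 40.8% of the other genes of chromosome 13. Neighbouring genes can share a peak, so they are not independent. The open histone promoters were covered by 46, 42, 41 and 41 distinct peaks, and 10 or 11 peaks per list each served at least a pair of genes. Of the 49 other protein-coding genes that start between the ends of the Hist1 cluster, 2 were open in every list and 44 in none. Most of these 49 are vomeronasal receptor genes (symbols beginning Vmn1r), so they do not stand for neighbouring genes in general.

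By class, 14 of 18 H2A and 14 of 18 H2B promoters were open in all 4 lists. The H4 promoters followed with 9 of 13, then H3 with 6 of 12 and H1 with 2 of 6. By cluster the count was 34 of 54 in Hist1, 9 of 10 in Hist2, 1 of 2 in Hist3, and Hist4h4. Hist1 falls into stretches whose nearest gene starts lie more than 200 kb apart. The first, from 21715763 to 21837530 (GRCm38), had 9 of 18 promoters open in all lists, the short one from 22035164 to 22043676 had 4 of 5, and the one from 23531050 to 23934851 had 21 of 31.

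**Figure D1:**
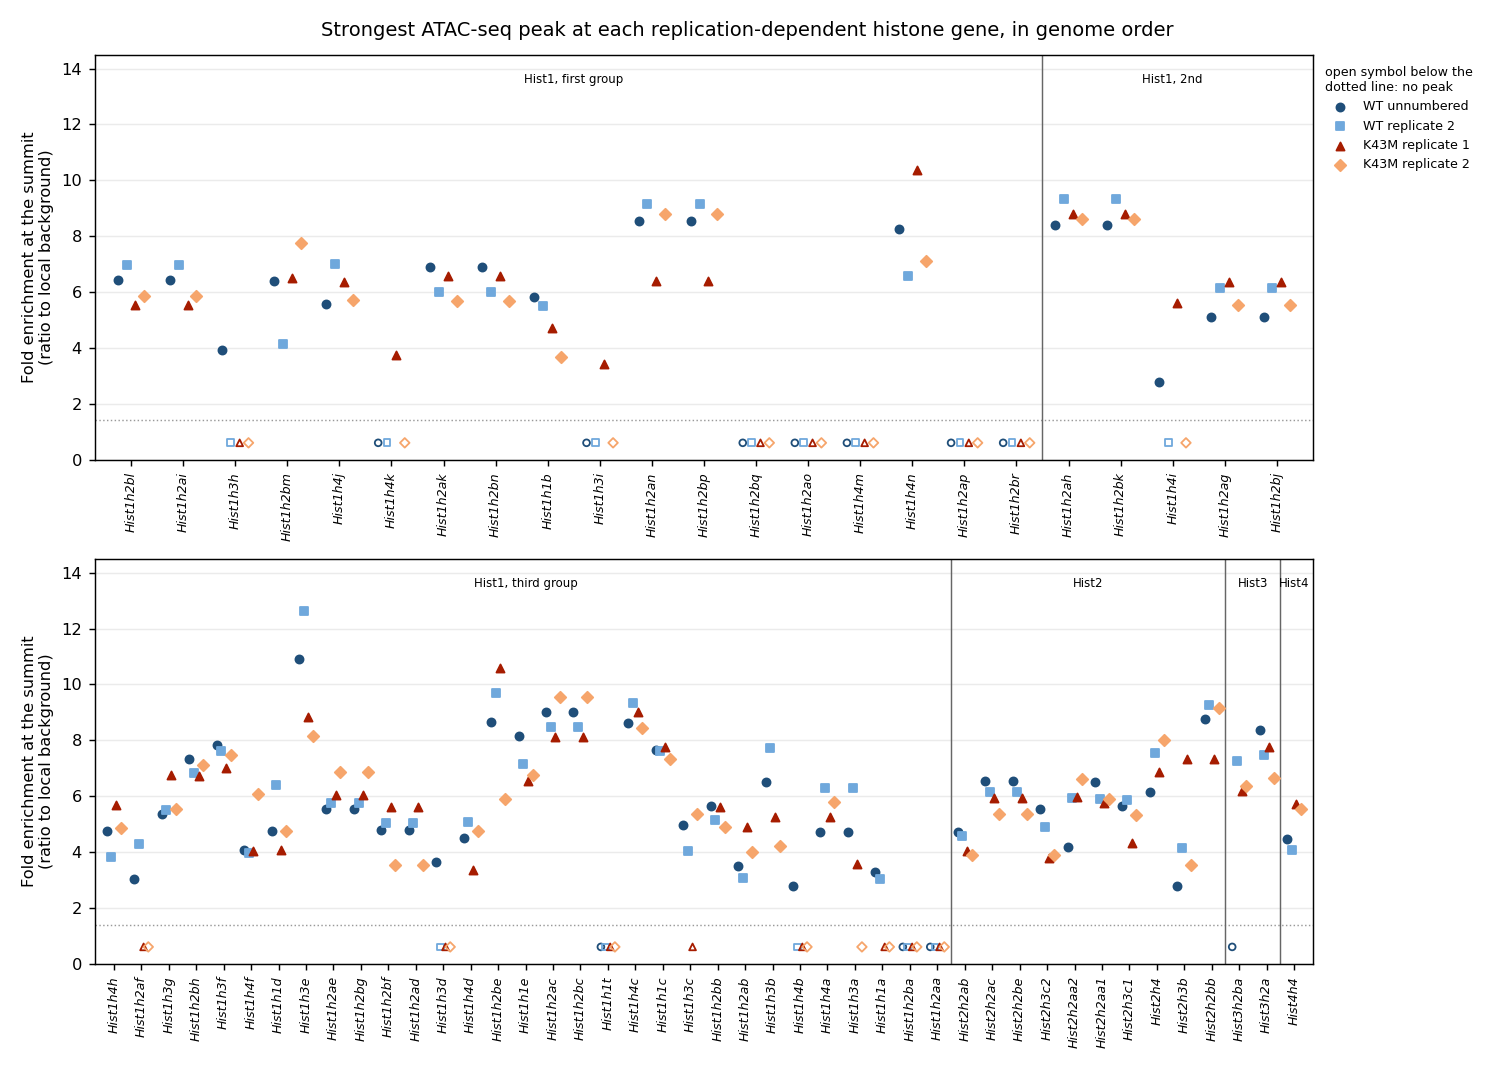
Fold enrichment of the strongest peak in the promoter window or over the gene, for the 67 histone genes in genome order (horizontal axis, gene names) and each of the 4 lists (colours and symbols), as the ratio of summit signal to local background. Open symbols below the dotted line mark genes without a peak, and Hist1h3e reaches the highest value, 12.6, in WT replicate 2.

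The strength of a peak is given by its fold enrichment, the deposited ratio of the signal at its summit to the background estimated for the same place and library. Distinct peaks at histone promoters had median fold enrichments of 5.54, 5.95, 5.96 and 5.68. The medians over all peaks of the lists, which include peaks away from genes, were 6.94, 6.71, 6.76 and 6.61. Genes with a peak in the promoter window or gene were also compared by their strongest peak. By this measure the medians were 5.65, 6.14, 6.05 and 5.86 at histone genes and 9.83, 9.75, 9.96 and 9.51 at all genes. The measure is a maximum over the gene, so a longer gene can hold more peaks to choose from. Gene length was not matched, so these medians do not compare promoters alone. The local background at open histone genes had medians of 365, 305, 186 and 138 read ends per 10 kb, against 207, 187, 183 and 161 at all open genes. It was thus above the level of all open genes in the wildtype lists, about level with it in K43M replicate 1 and below it in K43M replicate 2. In the text below, the fold enrichment of a gene is that of its strongest peak in the promoter window or over the gene body.

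The H1 genes differed among themselves. Hist1h1c, which encodes H1.2, had the strongest H1 peak of Hist1, with fold enrichments of 7.65, 7.62, 7.75 and 7.34. The value of K43M replicate 2 came from a peak outside the promoter window, where the peak within it had 5.23. Hist1h1e, the gene of H1.4, had 8.16, 7.16, 6.54 and 6.76, but both wildtype values belonged to the promoter peak of the neighbouring Hist1h2be. In its own promoter window Hist1h1e had 5.0, 5.72, 6.54 and 6.76, so that both K43M values lay above both wildtype values there. Hist1h1b, the gene of H1.5, was weakest of the H1 genes with a peak in every list, with 5.81, 5.49, 4.70 and 3.68, with both K43M values below both wildtype values. Within the promoter window it had 5.81, 3.46 and 3.68 in WT unnumbered, WT replicate 2 and K43M replicate 2 and no peak in K43M replicate 1, and the lists that had a peak there overlapped. Hist1h1d, the gene of H1.3, had peaks over the gene in all lists, at 4.74, 6.39, 4.09 and 4.74, but none at its annotated start. Its RefSeq start lies 1770 bp from the GENCODE start, and a window around RefSeq starts held a peak in all 4 lists.

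Hist1h1a, the gene of H1.1, had peaks in WT unnumbered and WT replicate 2, at 3.30 and 3.03, and in neither K43M list. These were weak peaks, at percentiles 34.9 and 25.5 of their lists by -log10 q. The testis gene Hist1h1t, which lies between members of the family with peaks, had no peak in any list.

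H2A and H2B genes mostly sit head to head, as 12 divergent pairs with starts 176 to 306 bp apart, so that 24 genes share promoters in this way. For 6 pairs a single peak covered both starts in all 4 lists. For 3 pairs no list had a peak. Over all pairs with peaks, 33 of 36 summits lay between the starts.

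The strongest pair was Hist1h2ah and Hist1h2bk, the promoter printed above, with 8.41, 9.33, 8.79 and 8.60. The pair Hist1h2ac and Hist1h2bc gave 9.03, 8.46, 8.12 and 9.55. These values overlapped between the genotypes. Hist1h2bf, with its partner Hist1h2ad, had the lowest mean among the H2B genes of Hist1, with 4.80, 5.04, 5.60 and 3.55. Hist1h2ab, which has no such partner, was lowest among the H2A genes of Hist1 with a peak in every list, with 3.51, 3.06, 4.88 and 4.01. Here both K43M values were above both wildtype values.

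Hist1h2af, another H2A gene, was the other member open in wildtype lists alone. Its peaks had fold enrichments of 3.05 in WT unnumbered and 4.27 in WT replicate 2, at percentiles 20.1 and 54.9 by -log10 q. The testis pair Hist1h2ba and Hist1h2aa, at the far end of the cluster, had no peak in any list.

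Among H3 genes, Hist1h3e had the strongest peak of Hist1, with 10.9, 12.6, 8.85 and 8.14, and both K43M values lay below both wildtype values. Its summit pileup, the number of read ends stacked at the summit after extension, was 47, 53, 22 and 20. Hist1h3g was lowest of the H3 genes of Hist1 with a peak in every list, at 5.35, 5.48, 6.76 and 5.53. At Hist1h3g both K43M values lay above both wildtype values. Most H3 genes that lacked a peak somewhere were weak where they had one.

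Hist1h3h was open in WT unnumbered alone, at 3.91, and so was Hist1h3d, at 3.62. Hist1h3i was open in K43M replicate 1 alone, at 3.43. Hist1h3c lacked a peak in K43M replicate 1 and had 4.98 and 4.02 in the wildtype lists and 5.35 in K43M replicate 2. Hist1h3a lacked one in K43M replicate 2 and had 4.70, 6.28 and 3.57 in the others, where its wildtype peaks were shared with Hist1h4a. No H3 gene was without a peak in all 4 lists.

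Hist1h4c led the H4 genes of Hist1 with 8.63, 9.35, 9.03 and 8.45. Hist1h4d was lowest of those with a peak in every list, with 4.49, 5.07, 3.37 and 4.75. In both, the lists of the genotypes overlapped. Hist1h4i was open in WT unnumbered at 2.77 and in K43M replicate 1 at 5.59, but in no other list. Hist1h4b was open in WT unnumbered alone, at 2.77, and Hist1h4k in K43M replicate 1 alone, at 3.73. Hist1h4m had no peak in any list.

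In Hist2 all 10 genes had a peak in the promoter window or the gene in every list. The H2A genes were Hist2h2ab with 4.72, 4.55, 4.05 and 3.90, Hist2h2aa2 with 4.17, 5.92, 5.96 and 6.60, and Hist2h2aa1 with 6.49, 5.90, 5.77 and 5.90. Hist2h2ac shared its peak with the H2B gene Hist2h2be, at 6.54, 6.14, 5.92 and 5.35. The other H2B gene, Hist2h2bb, had 8.74, 9.26, 7.32 and 9.14. Of these, Hist2h2ab and the shared peak were lower in both K43M lists than in both wildtype lists.

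The H3 genes Hist2h3c2 (5.52, 4.88, 3.79 and 3.88) and Hist2h3c1 (5.65, 5.87, 4.32 and 5.33) were also lower in both K43M lists. Hist2h3b had 2.77, 4.16, 7.32 and 3.53, and in WT unnumbered its peak lay outside the promoter window. Its peak in K43M replicate 1 was also that of the neighbouring Hist2h2bb. Hist2h4, an H4 gene, had 6.16, 7.53, 6.88 and 8.02.

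Hist3h2a had 8.36, 7.46, 7.77 and 6.64. Its neighbour Hist3h2ba had no peak in WT unnumbered and 7.26, 6.20 and 6.35 in the other lists. Hist4h4 had 4.46, 4.08, 5.71 and 5.54, so both K43M values were above both wildtype values.

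**Figure D2:**
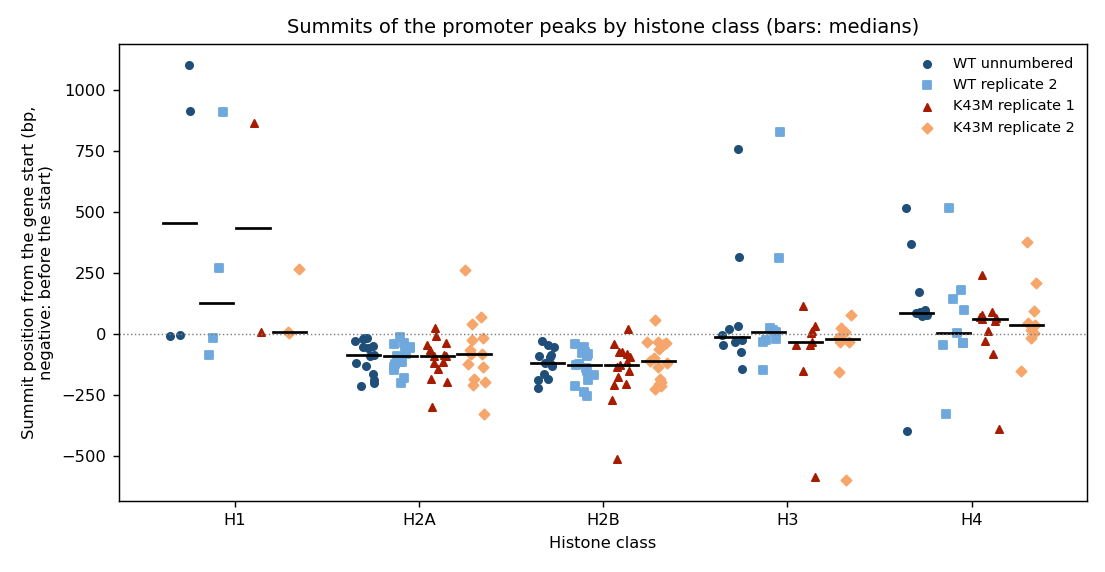
Distance of the promoter peak's summit from the annotated gene start (vertical axis, bp, negative before the start) by histone class and list (colours and symbols), with medians as bars. The medians of H2A and H2B genes lay before the start in every list, at -84 to -128 bp, and those of H4 genes after it.

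The median summit positions of H2A and H2B genes lay before the start and changed little between lists. Summits of single genes could move more, as at Hist1h2ag, with -49, -55, -197 and -329 bp. The medians of H3 and H4 genes moved more between lists and were close to each other in WT replicate 2. Class differences were not tested. The medians were -85, -89, -91.5 and -84 bp from the start for H2A genes and -117, -127, -128 and -109 bp for H2B genes. For H3 genes they were -13, 7, -34 and -22.5 bp, and for H4 genes 86, 2, 62 and 35 bp. In a divergent pair a summit between the starts lies before both of them. The H1 medians rest on 2 to 4 genes, with summits of Hist1h1c at 912, 909, 863 and 10 bp.

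In total 8 genes had no peak in the window or over the gene in any list, all in Hist1. They were Hist1h2bq, Hist1h2ao, Hist1h4m, Hist1h2ap and Hist1h2br in the first stretch, and Hist1h1t, Hist1h2ba and Hist1h2aa in the last. The methods of the study state that reads mapping to several places were removed, so the copy number of each sequence was measured. Of the 50-base stretches of a promoter window, a median of 82.4% occurred once in the genome for histone genes and 100% for other genes. For Hist1h2bq, Hist1h2ao, Hist1h2ap and Hist1h2br the share was 0%, so a closed promoter and a lack of unique reads cannot be told apart there. Hist1h4m had 7.67%.

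**Figure D3:**
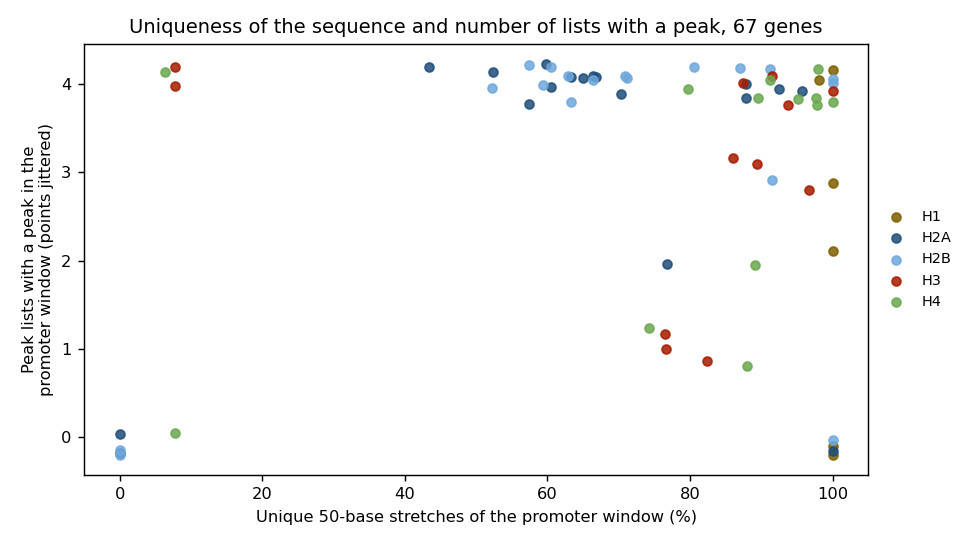
Share of 50-base stretches of the promoter window that occur once in the genome (horizontal axis, %) and number of lists with a peak in that window (vertical axis, points jittered) for the 67 histone genes, coloured by class. The genes at 0% had no peak in any list, while the testis genes at 100% also had none.

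Among histone genes, low uniqueness did not go with a lack of peaks throughout. Of 5 histone genes with 1% to under 50%, Hist1h4n, Hist2h3c2, Hist2h3c1 and Hist2h2aa2 were open in all 4 lists. Of 34 with 50% to under 90%, 25 were open in all lists and 9 in some. Of 24 with 90% or more, 16 were open in all lists, 4 in some and 4 in none. The last 4 were the testis genes Hist1h1t, Hist1h2ba and Hist1h2aa, and Hist1h1d at its GENCODE start. Among other genes a lack of peaks was more common at lower uniqueness. With under 1%, 476 of 478 other genes had no peak in any list, and with 1% to under 50% it was 679 of 750. The count was 1176 of 1633 with 50% to under 90% and 8885 of 19010 with 90% or more.

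The first comparison asked whether histone genes were open in cells of a single genotype. With the promoter window and the gene body counted jointly, Hist1h2af and Hist1h1a had a peak in each wildtype list but none in the K43M lists, 2 of 67 genes (2.99%, background 0.734%). Among the other genes of chromosome 13 the share was 2.04%. The opposite pattern was found for 0 of 67 genes (background 2.06%). The count of wildtype-only genes was 2 without WT unnumbered (background 1.45%) and 5 without WT replicate 2 (background 1.32%). It was 3 without K43M replicate 1 or without K43M replicate 2 (background 1.57% and 1.09%). That of K43M-only genes was 1 without WT replicate 2 (background 3.52%) and 2 without K43M replicate 2 (background 3.58%). It was 0 without WT unnumbered or without K43M replicate 1 (background 3.01% and 2.89%).

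The next comparison asked whether peak strength differed between the genotypes. It was made at 11721 genes with a peak in all 4 lists, 48 of them histone genes, whose peaks form 39 separate regions. The log2 fold enrichment was centred on the median gene of each list and fitted with limma. No histone gene passed an adjusted p of 0.05 (0 of 48), and 22 of all genes did (background 0.188%). At an unadjusted p under 0.05 there were 6 of 48 histone genes and 1293 of 11721 genes in all, a similar share. The median K43M minus wildtype difference was -0.07 on the log2 scale for histone genes and -0.00 for all genes. It was -0.05 in Hist1 and -0.16 in Hist2, where 7 of 10 genes were lower in K43M. The sign at Hist1 depended on the centring, and the median there was 0.06, and 0.04 over all histone genes, when genes of chromosome 13 were centred on the other genes within 5 Mb of the cluster.

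Both K43M fold enrichments lay below both wildtype ones at 12 of the 48 genes (25.0%, background 18.2%), 7 of them in Hist1 and 5 in Hist2. Both lay above at 8 (16.7%, background 22.0%), 6 of them in Hist1, with Hist2h2aa2 and Hist4h4. In Hist2 the genes lower in K43M were 5 of 10, and of the other genes within 5 Mb of Hist1 they were 10 of 21. Some of these values rest on peaks outside the promoter window, as at Hist1h1e.

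The largest difference in fold enrichment fell at Hist1h3b, an H3 gene that is named here after its values were seen. It had 6.49, 7.72, 5.24 and 4.22, with both K43M values below both wildtype values. The log2 difference was -0.60 ± 0.14 (SE of the fit, limma adjusted p = 0.161). For Hist1h3e it was -0.48 ± 0.13 (limma adjusted p = 0.216), and for Hist4h4 it was 0.39 ± 0.12 (adjusted p = 0.286). Without WT unnumbered, the log2 difference was -0.73 at Hist1h3b and, in the opposite direction, 0.76 at Hist1h2bm. Without WT replicate 2, the log2 difference was 0.87 at Hist2h3b, whose K43M replicate 1 value is that of the Hist2h2bb peak. Within its own promoter window Hist2h3b had no peak in WT unnumbered and 4.16, 3.16 and 3.53 in the other lists. In both of these fits the lone wildtype list was assumed to vary like the K43M lists.

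Fold enrichment is relative to the local background, which was lower in the K43M lists on part of chromosome 13. The summit pileup, which is not divided by background, was therefore recovered from the fold enrichment and -log10 p of each peak. It was centred on the median gene of each list and compared in the same way. At nearly all Hist1 genes the pileup was lower in both K43M lists than in both wildtype lists.

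At Hist1h3b the pileups were 49, 56, 19 and 12, and at Hist1h1c 66, 51, 30 and 25. At the shared promoter of Hist1h2ah and Hist1h2bk they were 52, 41, 34 and 31, and at Hist1h4c 47, 39, 25 and 23. In each of these the lists of the genotypes did not overlap. At Hist4h4 the pileups were 66, 59, 102 and 71, the opposite order, and at Hist3h2a they were 47, 39, 47 and 33. Median pileups over all peaks of the lists were 26, 23, 23 and 22.

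The median log2 difference in pileup was -0.90 at the 36 Hist1 genes fitted, of which 35 were lower in K43M. The exception was Hist1h4n, at 0.22 ± 0.22, and Hist1h2bm was near no difference, at -0.02 ± 0.37. The median was -0.28 at the 10 Hist2 genes, of which 7 were lower, and -0.79 over all 48 histone genes. No histone gene passed an adjusted p of 0.05 (0 of 48, background 0.0%). The smallest adjusted p was 0.0746, at Hist1h3b, with a difference of -1.69 ± 0.21. At an unadjusted p under 0.05, 34 of 48 histone genes were lower in K43M (background 6.71%). Both centred K43M pileups lay below both wildtype ones at 40 of 48 (83.3%, background 22.0%), comprising 34 of 36 Hist1 and 6 of 10 Hist2 genes. Both lay above at Hist4h4 alone (2.08%, background 23.4%). With limma's trend and robust options, 124 of all 11721 genes passed, 2 of them histone genes. These were Hist1h3b and Hist1h4a, with limma adjusted p of 0.0337 and 0.0436.

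**Figure D4:**
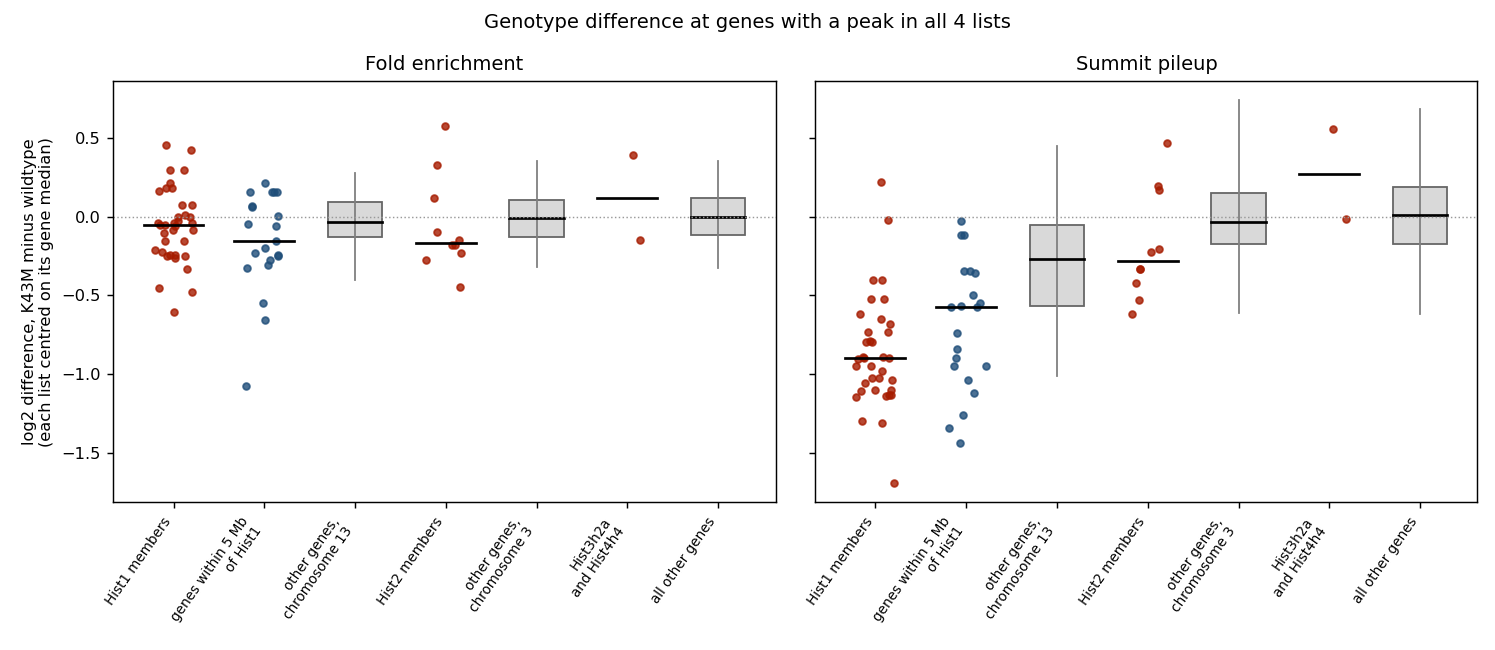
K43M minus wildtype difference on the log2 scale (vertical axis) of fold enrichment (left) and summit pileup (right) at genes with a peak in all 4 lists, by group. Points are genes and bars are medians; boxes show the quartiles and lines the 5th to 95th percentile of groups with over 100 genes. In pileup the Hist1 genes have a median of -0.90 and the 21 other genes within 5 Mb one of -0.57.

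The lower pileup was not confined to histone genes. The other genes of chromosome 13 had a median of -0.29, and 116 of 416 (27.9%) were lower at an unadjusted p under 0.05. For the 21 of them within 5 Mb of the Hist1 cluster the median was -0.57. All 21 were lower in K43M, and 14 (66.7%) at an unadjusted p under 0.05, against 31 of 36 Hist1 genes (86.1%). At 17 of the 21 the lists of the genotypes did not overlap. The other genes of chromosome 3 had a median of -0.03. Whether Hist1 genes differ from their neighbours in this was not tested.

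Regions rather than genes gave a finer view of the neighbourhood. Relative to the median region of each list, the 29 Hist1 regions had log2 pileups of 0.36, 0.33, -0.66 and -0.63. Their level was thus above the median region in both wildtype lists and below it in both K43M lists. The local background at the same regions was 0.94, 0.79, -0.19 and -0.18. The 56 other regions within 5 Mb had pileups of -0.20, -0.11, -1.04 and -0.95 and backgrounds of -0.23, -0.29, -1.11 and -0.91. The pileup was lower in K43M at 28 of 29 Hist1 regions and 52 of 56 others. The median differences were -0.94 and -0.74. The 8 Hist2 regions had backgrounds of 0.87, 0.90, 0.84 and 0.68, with a median difference of -0.17.

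**Figure D5:**
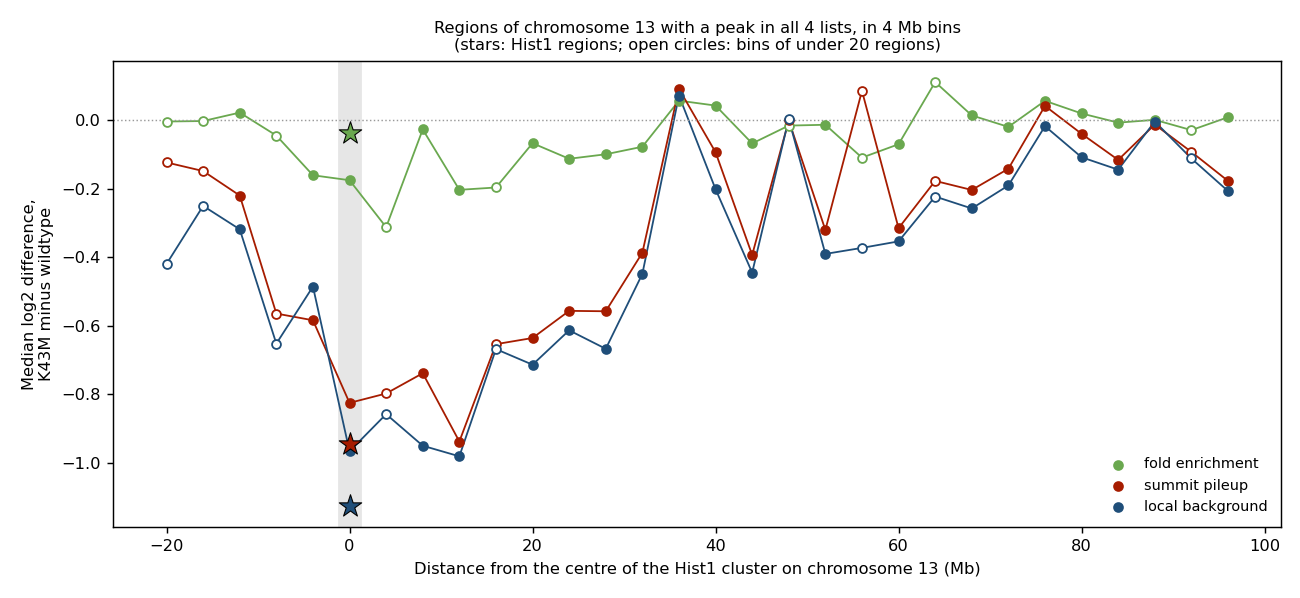
Median K43M minus wildtype difference (vertical axis, log2) of fold enrichment, summit pileup and local background in 4 Mb bins of chromosome 13 by distance from the centre of the Hist1 cluster (horizontal axis, Mb). Circles are regions without histone genes, open where a bin holds under 20 regions, and stars are the 29 Hist1 regions, whose pileup lies at -0.94 and fold enrichment at -0.04.

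Along chromosome 13 the pileup of regions without histone genes was lower over a wide stretch. The median difference was -0.82 within 2 Mb of the centre of Hist1 and -0.94 at 10 to 14 Mb beyond it. It was -0.39 at 30 to 34 Mb, 0.09 at 34 to 38 Mb and lower again at -0.39 at 42 to 46 Mb and -0.32 at 50 to 54 Mb. Local background had -0.97, -0.98, -0.45, 0.07, -0.44 and -0.39 at these places. Fold enrichment had -0.18, -0.20, -0.08, 0.06, -0.07 and -0.01. The background of a peak was calculated from its own pileup and fold enrichment. Where fold enrichment changed little, background therefore had to move with pileup, so its course is not a separate observation. With the centring on the other genes within 5 Mb of Hist1, a setting chosen after seeing the data, the Hist1 median in pileup was -0.28. The cause of the lower background on chromosome 13, and its part in the lower pileup at Hist1, was not tested, and line and genotype cannot be told apart for it.

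Most genes that act on the histone clusters were open in every list. Of 11, comprising Npat, Slbp, Casp8ap2 (FLASH), Lsm10, Lsm11, Hinfp, Zfp473, Pou2f1 (OCT1), Cdk2, Ccne1 and Ccne2, 10 had a promoter peak in all 4 lists, and Zfp473 had a peak elsewhere in the gene. Npat had fold enrichments of 11.4, 12.5, 12.0 and 10.5, and Slbp had 10.0, 10.5, 10.2 and 11.01. Lsm10, a subunit of the U7 particle that cuts histone messages at the stem-loop, had 15.5, 13.7, 16.6 and 14.4. Among these 3 genes the lists of the genotypes overlapped.

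Of 13 replication-independent histone genes, which are expressed outside S phase too, 7 had a promoter peak in all 4 lists and 10 had a peak in the promoter or gene. H2afz, the gene of H2A.Z, had 10.6, 10.98, 10.6 and 9.57, and H2afx, the gene of H2A.X, had 8.11, 10.6, 9.72 and 10.6. H1f0, a linker histone of slowly dividing cells, had 3.99, 3.99, 6.49 and 4.59, with both K43M values above both wildtype values. H1fx, H1fnt and H2afy2 had none.

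The cell type was checked with marker genes. Of 7 B-lineage genes, 7, 7, 7 and 5 had a promoter peak, with Cd79b and Rag1 missing in K43M replicate 2 alone. None of 4 T cell and 4 myeloid genes had a peak in any list. Of 4 erythroid genes none had a promoter peak, and Klf1 had a peak in the gene in all lists. Neither liver gene had a promoter peak, and Apoa1 had a peak in the gene in K43M replicate 2 alone, at 5.59. The lists held 33038, 34248, 39038 and 34752 peaks, of which 4.45%, 4.25%, 3.61% and 3.52% lay on chromosome 13. K43M replicate 2 had the lowest background and also the fewest open histone promoters, and the part of depth in that was not tested.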

How the data were processed

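ATAC-seq had been performed on 4 lines, and the deposited files are 4 peak lists on the mm10 build. Per the submitters' processing notes and the study's methods, the authors trimmed reads (Trimmomatic 0.36), mapped them (BWA 0.7.15), removed blacklisted regions (bedtools) and reads with several positions or low mapping quality (SAMtools 1.3.1), and called peaks per library (MACS2 2.1.0) with read ends shifted and extended to 200 bp, so that each is centred on the cut site. No control library is named. The authors' fold enrichment is a ratio of summit signal to local background, and the deposited -log10 p and -log10 q come from the same Poisson model within a library. No read totals are in the lists, so depth is known through the recovered pileup and background only. Recovery gave whole summit pileups for 100% of the peaks. The background of each peak was calculated from its pileup and fold enrichment.

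Genes and starts came from GENCODE release vM21, which has the build of the lists. Differences were fitted with limma 3.58.1 in R 4.3.3 on log2 values of genes with a peak in every list, with Benjamini-Hochberg adjustment over all 11721 genes and a threshold of 0.05. A gene's value was that of its strongest peak, so genes that share a peak share a value. Unique 50-base stretches were counted over chromosomes 1 to 19, X and Y of GRCm38.p6 on both strands. Python 3.11.15, numpy 2.4.6, pandas 2.3.3, scipy 1.17.1 and matplotlib 3.10.9 were used, and the scripts were tested on simulated data. Groups followed the labels, and the unlabelled list followed the series' design text.

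The genes, lists and tests were chosen with earlier results of these data known. Named genes were those on chromosomes 3, 6 and 11, the highest and lowest mean fold enrichment of each class in Hist1, those lacking a peak in a list, the testis genes, any called gene and fixed lists of regulators, other histones and markers, of which 1 marker is not reported here. Hist1h1e, Hist1h1d, Hist1h2ac and its partner, Hist1h3b, Hist1h2bm, Hist1h4n and Hist1h4a were named after their values were seen. The alternatives changed the window, the threshold, the number of peaks, the gene starts, the centring, the scale, the regions and the lists included.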

Additional observations from a re-analysis of the deposited data

How the results depend on the processing

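The count of histone promoters open in all 4 lists, 45, stayed within 1.5 times of itself in every alternative, from 38 with a summit in the window or with -log10 q of at least 5 to 52 with a window of 2000 bp. Of the genes open in wildtype lists alone 1 was left with that window (background 0.524%), and leaving out a list gave 2 to 5 (background 1.09% to 1.57%). The count of genes open in K43M lists alone ran from 0 to 2 when a list was left out (background 2.89% to 3.58%). The count of histone genes with a changed fold enrichment was 0 in every alternative that kept all 4 lists. Fits without a list leave a genotype with 1 list, so calls from them are not given.

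The median difference in fold enrichment, -0.073, became -0.032 with chromosome centring and turned to 0.043 with centring on the genes near Hist1. It was -0.79 on the pileup scale, and leaving out a list gave -0.113 to -0.019. The median difference in summit pileup, -0.79, became -0.44 with chromosome centring, -0.28 with centring on the genes near Hist1, -0.72 with -log10 q of at least 5 and -0.073 on the fold enrichment scale. Leaving out a list gave -0.76 to -0.63. For Hist1 alone, -0.90 became -0.50, -0.28 and, on the fold enrichment scale, -0.052, and leaving out a list gave -1.03 to -0.86. The direction was kept in each of these but the centring that turned the fold enrichment. RefSeq starts, the centring near Hist1 and the Hist1 median were added after seeing the data. No paired analysis was possible because the genotypes share only replicate number 2. Where 1 list was left out, the lone list was assumed to vary like the others. Depth limits weak peaks, since a list holds only peaks past its own threshold, and an absent peak does not show closed chromatin.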
